A study of Mus musculus with 8 samples.

Results

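The genes described here encode the respiratory chain and the ATP synthase of the inner mitochondrial membrane, with some of the factors that assemble them. They were taken by symbol from the deposited expression matrix: all genes whose symbol starts with mt-Nd, mt-Co, mt-Atp, mt-Cytb, Ndufa, Ndufb, Ndufc, Ndufs, Ndufv, Uqcr, Sdh, Cox4, Cox5, Cox6, Cox7, Cox8 or Atp5. This gave 110 of 18833 genes, of which 13 are encoded by the mitochondrial genome and 97 by nuclear chromosomes. Of the nuclear genes, 12 encode assembly factors (Ndufaf and Sdhaf), and the other 85 were counted as subunits by symbol. The 85 include *Cox7a2l*, which encodes a factor that joins complexes, and *Ndufb1-ps*, which is annotated as a noncoding RNA. Sorted live brain cells of female mice of a mixed CBA and C57Bl6J background were taken for single-cell RNA sequencing, and the deposited cells are those that the authors then selected by cluster and marker genes as oligodendrocytes, the myelinating glia of the central nervous system. *Fire*Δ/Δ mice (KO in the labels) carry a homozygous deletion of the Fms intronic regulatory element, an enhancer in an intron of *Csf1r*, and lack microglia; *Fire*+/+ mice (WT) do not carry it. *Fire*+/+ mice 1 and 4 and *Fire*Δ/Δ mice 3 and 6 each gave a library of the hippocampus and a library labelled cortex, which was the left hemisphere after removal of the hippocampus. By their labels, mice 1 and 3 were aged 1 month plus 18 days and mice 4 and 6 were aged 1 month plus 16 days. No treatment was given to any group.

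Electrons enter the chain at complex I (NADH dehydrogenase) or complex II (succinate dehydrogenase), pass through complex III (the cytochrome bc1 complex) to complex IV (cytochrome c oxidase), and the proton gradient that complexes I, III and IV build drives complex V, the ATP synthase. All complexes but complex II are assembled from subunits of both genomes. The mitochondrial subunits are transcribed inside the organelle as long polycistronic RNAs, whereas nuclear subunits are transcribed gene by gene and imported as proteins. Oligodendrocytes carry a high demand for ATP and lipid precursors while they build myelin, and mature cells are also known to use glycolysis.

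The 13 mitochondrial genes lie on chromosome M, 12 of them on the plus strand and mt-Nd6 on the minus strand. Neighbouring genes share bases, so that a read from the shared stretch cannot be given to either gene alone. mt-Atp8 (chrM:7766-7969) and mt-Atp6 (chrM:7927-8607), which encode subunits of complex V, share 43 bases, and mt-Nd4l (chrM:9877-10173) and mt-Nd4 (chrM:10167-11544), which encode subunits of complex I, share 7 bases. Both pairs are translated from RNAs that carry both frames. The shared bases are shown in capitals with 20 bases on each side, as read from the GENCODE vM21 transcripts of GRCm38, because the members of each pair differed in their counts and in their tissue differences below.

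mt-Atp8 and mt-Atp6, chrM:7907-7989, plus strand: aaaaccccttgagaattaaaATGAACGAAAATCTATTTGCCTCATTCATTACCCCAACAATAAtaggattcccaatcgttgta
mt-Nd4l and mt-Nd4, chrM:10147-10193, plus strand: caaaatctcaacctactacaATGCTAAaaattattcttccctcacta

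In each library 904 to 2784 cells were kept, with 12015518 to 27848236 unique molecular identifiers (UMIs, each marking 1 captured RNA molecule) in all and a median of 9377 to 13725.5 UMIs per cell. All cells of all libraries had UMIs of the oligodendrocyte genes *Mog*, *Mag* and *Mbp*. *Csf1r*, the gene whose enhancer was deleted, had a UMI in 5.31% to 10.2% of cells of the *Fire*+/+ libraries and in 0% to 0.155% of cells of the *Fire*Δ/Δ libraries. The gates of the sort were set against doublets, and no doublet caller was run here on the deposited cells. Of 12560 distinct barcodes, 21 occurred in more than 1 library. Each batch, as the cell labels name it without saying of which step, held 1 tissue of 1 mouse of each genotype (batch 3, hippocampus of mice 1 and 3; batch 4, cortex of mice 1 and 3; batch 5, hippocampus of mice 4 and 6; batch 6, cortex of mice 4 and 6). Batch 6 was described by the study as of poorer quality.

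Most of the mitochondrial genes were more abundant than any nuclear member. Over all cells of a library they took 4.65% to 6.28% of the UMIs, and the 97 nuclear genes together took 1.66% to 2.08%. Levels are given as UMIs per 10000 UMIs of a library, averaged over the 8 libraries. UMIs were counted at 3′ ends, so levels were not divided by gene length, and how well each RNA is captured is unknown, so an order between genes is an order of counts. mt-Co3, which encodes a core subunit of complex IV, stood at 117, mt-Atp6 at 104, mt-Co2 at 78.7, mt-Co1 at 66.6 and mt-Cytb, the only mitochondrial subunit of complex III, at 57.9. The other genes of complex I stood between mt-Nd4 at 34.2 and mt-Nd6 at 0.347. The overlapping neighbours were far apart in count: mt-Atp8 stood at 1.02 beside mt-Atp6, and mt-Nd4l at 3.13 beside mt-Nd4.

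**Figure D1:**
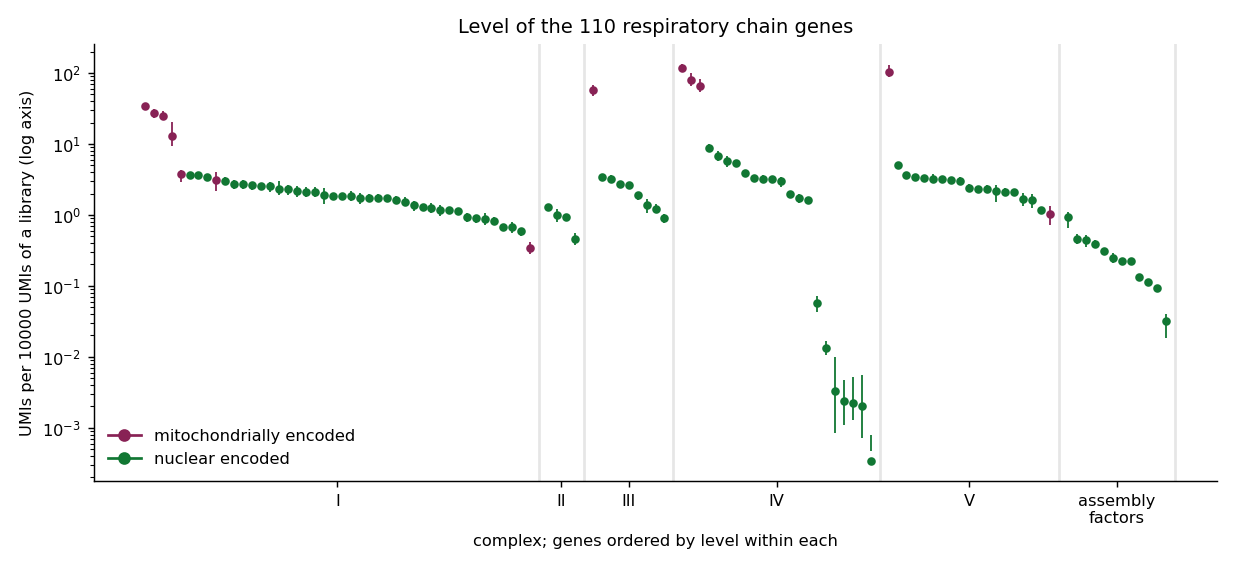
UMIs per 10000 UMIs of a library (log axis) for each of the 110 genes, ordered by level within complexes I to V and the assembly factors. Points are means over 8 libraries and vertical lines run from the lowest to the highest library above 0; 9 of the 13 mitochondrial genes, from mt-Co3 (117) to mt-Nd3 (13.1), lie above the highest nuclear gene, Cox4i1 (8.84), and the other 4 lie within the range of the nuclear genes, and the 6 genes at the bottom of complex IV lie under 0.02.

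Nuclear genes had a median level of 1.75. *Cox4i1*, a subunit of complex IV, was the highest at 8.84, followed by the complex IV genes *Cox6c* (6.85), *Cox7c* (5.68) and *Cox8a* (5.41) and by *Atp5h* (5.09), a subunit of the stalk of complex V. Within complex I the nuclear genes ranged from *Ndufa9*, the lowest, to *Ndufb9* at 3.64, and within complex III from *Uqcrc1* at 0.905 to *Uqcrh* at 3.44. The 4 genes of complex II, which has no mitochondrial subunit, stood between 0.460 (*Sdhd*) and 1.28 (*Sdha*). Assembly factors were lower, from 0.926 (*Ndufaf2*) to 0.0318 (*Ndufaf6*). Summed over genes, nuclear complex I took 60.1 to 75.7 UMIs per 10000, complex II 3.30 to 3.98, complex III 15.3 to 19.2, complex IV 43.7 to 54.1 and complex V 40.5 to 50.6.

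In the complex IV families with isoforms of other tissues, 1 form carried nearly all UMIs. *Cox8a* had 78022 UMIs over all libraries and *Cox8b*, a form known from heart and skeletal muscle, had 5. *Cox4i1* had 128851 and *Cox4i2*, a form known from lung and from low oxygen, had 34. *Cox6a1* had 46607 and its muscle form *Cox6a2* had 50. *Cox6b1* had 43613 and the testis form *Cox6b2* had 828. In the Cox7a family, *Cox7a2* had 55717 UMIs, *Cox7a2l*, which encodes a factor that joins complexes III and IV, had 23365, and the muscle form *Cox7a1* had 193. *Ndufa4*, a subunit of complex IV despite its name, had 47556, and its paralogue *Ndufa4l2* had 33. By contrast, the 3 nuclear genes that encode the same ring subunit of complex V were all present, with 35445 UMIs of *Atp5g1*, 52046 of *Atp5g2* and 17041 of *Atp5g3*. Among the nuclear genes 7 had a UMI in under 5% of cells and were not tested: *Cox4i2*, *Cox6a2*, *Cox7a1*, *Cox7b2*, *Cox8b*, *Ndufa4l2* and *Ndufaf6*. Nuclear subunit genes have processed pseudogenes, and reads that they share with them could have been lost or misplaced in the counting.

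Promoters of 79 of the nuclear genes were found by symbol in the RefSeq windows of GRCm38.p6, each from 250 bases before to 50 after a start. *Cox8a* and *Cox8b* are shown because they had the most unequal counts of the isoform pairs with windows. Capitals mark the letters CCGGAAG of ETS factors such as GABPA, GCGCATGC of NRF1 and AAGATGG of YY1, searched on both strands.

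Cox8a, chr19:7217567-7217866, minus strand: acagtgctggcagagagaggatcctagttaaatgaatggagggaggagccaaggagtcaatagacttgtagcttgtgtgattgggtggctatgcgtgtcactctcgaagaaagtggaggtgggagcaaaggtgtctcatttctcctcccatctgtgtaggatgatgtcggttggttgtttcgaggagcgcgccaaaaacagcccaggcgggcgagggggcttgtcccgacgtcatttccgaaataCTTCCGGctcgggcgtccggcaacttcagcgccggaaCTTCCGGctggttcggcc
Cox8b, chr7:140900397-140900696, minus strand: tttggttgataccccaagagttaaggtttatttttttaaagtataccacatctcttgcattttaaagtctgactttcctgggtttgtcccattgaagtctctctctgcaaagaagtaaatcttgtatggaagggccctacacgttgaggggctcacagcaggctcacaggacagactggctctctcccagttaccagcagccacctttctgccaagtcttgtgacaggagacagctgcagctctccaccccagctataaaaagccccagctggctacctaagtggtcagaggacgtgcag

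The *Cox8a* window held 2 ETS matches and 19 CpG, and the *Cox8b* window held no match and 2 CpG. Over the 84 windows of nuclear members, 26.2% held the ETS letters, 14.3% the NRF1 letters and 13.1% the YY1 letters, against 8.86%, 2.71% and 6.34% of all 32851 windows. At least 1 of the 3 was in 45.2% of member windows and in 16.6% of all windows, and the median number of CpG per window was 20 and 7. A match is a run of letters and not a measured binding site. No mitochondrial gene has a promoter of this kind, and no chromatin was measured here.

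The mitochondrial share of UMIs was higher in cortex than in hippocampus in each of the 4 mice. In *Fire*+/+ mouse 1 it was 4.85% in the hippocampus and 5.42% in the cortex, and in *Fire*+/+ mouse 4 it was 5.05% and 6.24%. In *Fire*Δ/Δ mouse 3 it was 4.65% and 5.42%, and in *Fire*Δ/Δ mouse 6 it was 4.67% and 6.28%. The 4 hippocampal libraries did not overlap the 4 cortical libraries. The nuclear share was 2.06% and 1.99% in mouse 1, 2.01% and 2.08% in mouse 3, 1.66% and 1.70% in mouse 4 and 1.75% and 1.73% in mouse 6, in the same order of tissues. It was thus near 2% in both libraries of mice 1 and 3 and under 1.8% in both libraries of mice 4 and 6, whatever the genotype or tissue. The Wilson 95% intervals of these shares were at most 0.0274 percentage points wide for the mitochondrial and 0.0147 for the nuclear genes, and cover counting error only. The authors had removed cells above 10% mitochondrial UMIs, which limits how high this share could be, and 189 of the 12581 cells lay between 9% and 10%. Such cells were 4.63% and 4.87% of the cortex libraries of mice 4 and 6 (batch 6) and 0.539% to 1.56% of the other libraries.

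**Figure D2:**
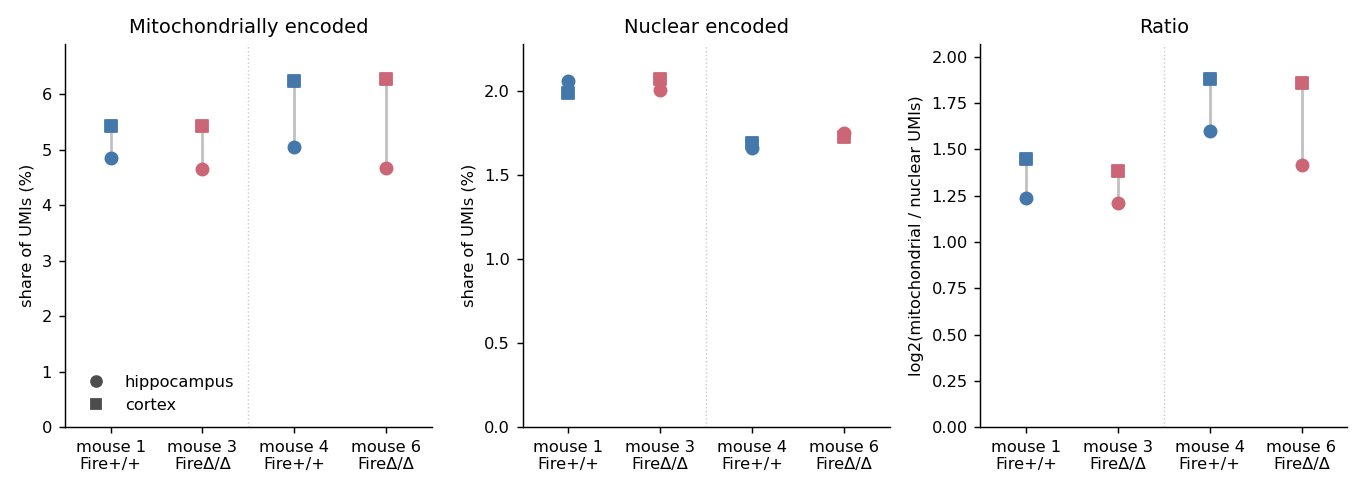
Share of UMIs (%) of the 13 mitochondrial genes and the 97 nuclear genes, and log2 of their ratio, in each library, with mice on the horizontal axis (blue, *Fire*+/+; red, *Fire*Δ/Δ) and a grey line joining the hippocampus (circle) and cortex (square) of a mouse. The mitochondrial share was higher in cortex in all 4 mice, and the nuclear share was under 1.8% in mice 4 and 6 and above 1.9% in mice 1 and 3.

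Log2 of the ratio of mitochondrial to nuclear UMIs ranged from 1.21 in the hippocampus of mouse 3 to 1.88 in the cortex of mouse 4. Cell by cell within a library, the mitochondrial share hardly followed the nuclear share of the remaining UMIs. Pearson's r was between 0.03 and 0.18 in the 8 libraries, over 904 to 2784 cells that share a library, its depth and its free RNA. Both were lower in cells with more UMIs. With UMIs per cell, r was between -0.37 and -0.25 for the nuclear share of the remaining UMIs. For the mitochondrial share it was between -0.20 and -0.09.

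Between genotypes, no member differed past the threshold. Averaged over both tissues of a mouse, the mitochondrial share was 5.14% and 5.64% in *Fire*+/+ mice 1 and 4 and 5.03% and 5.48% in *Fire*Δ/Δ mice 3 and 6, for means of 5.39% ± 0.358 and 5.25% ± 0.313 (SD, n = 2 mice each). The difference of -0.137 percentage points was smaller than the spread between mice of a genotype. That spread includes the difference between the pairs of mice that shared an age label and batches (1 with 3, 4 with 6). Within both pairs the share was lower in the *Fire*Δ/Δ mouse. The nuclear share averaged 1.85% ± 0.244 for *Fire*+/+ and 1.89% ± 0.213 for *Fire*Δ/Δ (SD, n = 2 mice each), again with overlap. By pair it was 2.02% in mouse 1 and 2.04% in mouse 3, and 1.68% in mouse 4 and 1.74% in mouse 6. Leaving out mouse 3 or mouse 4, which leaves a pair incomplete, turned the difference of the mitochondrial share to 0.0838 and 0.116 points. With 2 mice against 2, an exact permutation test cannot give a two-sided p under 0.333.

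Gene by gene, mean log2 levels per mouse (log2 of UMIs over the size factor of a cell, plus 1) were compared with limma, and p-values were adjusted over the 9257 genes detected in 5% of cells or more. None of the members tested (13 mitochondrial and 90 nuclear) passed an adjusted p of 0.05, and none had an unadjusted p under 0.05; over all genes 5 passed (0.054%), and 187 had an unadjusted p under 0.05. With edgeR on UMI sums no member passed either, nor did any have an unadjusted p under 0.05. Of the mitochondrial genes 12 of 13 were lower in *Fire*Δ/Δ mice on average, with a median difference of -0.05. Of the nuclear genes 61 of 90 were higher, with a median of 0.02. Over all genes 4985 of 9257 were higher, with a median of 0.00. The nuclear median was 0.09 without mouse 1 or mouse 6 and -0.05 without mouse 3 or mouse 4. mt-Nd4l had the largest difference of the mitochondrial genes at -0.19 (standard error 0.12, adjusted p = 1.00 in limma), with levels of 1.57 and 1.86 in *Fire*+/+ mice and 1.54 and 1.52 in *Fire*Δ/Δ mice. It was the only mitochondrial gene with both *Fire*Δ/Δ mice below both *Fire*+/+ mice. Among the nuclear genes only *Cox7a2l* was likewise lower, at 1.07 and 1.04 against 1.08 and 1.11, so that 2 members were apart in this direction, beside 8.0% of all genes. In the other direction, 4 members were higher in both *Fire*Δ/Δ mice than in both *Fire*+/+ mice, beside 11.9% of all genes. They were *Cox5b* (1.79 and 1.69 against 1.64 and 1.68), a complex IV subunit, *Sdhc* (0.71 and 0.70 against 0.68 and 0.67), which anchors complex II in the membrane, *Atp5g3* (0.86 and 0.87 against 0.81 and 0.79) and the assembly factor *Ndufaf1* (0.117 and 0.112 against 0.105 in both). The highest nuclear differences were those of the complex I gene *Ndufc2* (0.09, standard error 0.10), of *Cox5b* (0.08, standard error 0.10) and of the complex I gene *Ndufab1* (0.08, standard error 0.07), and the lowest were those of *Cox6c* (-0.06, standard error 0.20), *Atp5k* (-0.05, standard error 0.13) and *Ndufaf2* (-0.05, standard error 0.08).

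Oligo1, one of the 4 clusters that the authors deposited, held 98 to 859 cells of each *Fire*Δ/Δ library and 6 cells in all of the *Fire*+/+ libraries. Without its cells, the mitochondrial share averaged 5.39% ± 0.360 for *Fire*+/+ and 5.42% ± 0.280 for *Fire*Δ/Δ (SD, n = 2 mice each), and the median difference of the mitochondrial genes was 0.01. No member passed in limma, and none had an unadjusted p under 0.05, beside 0.0217% of 9232 genes that passed. For the members, edgeR gave the same 2 counts. With the age label as a block, limma again passed no member, and 3 had an unadjusted p under 0.05, beside 520 of 9232 genes. The genes with both *Fire*Δ/Δ mice above both *Fire*+/+ mice were mt-Nd2 and mt-Co3 and the nuclear *Cox5b*, *Sdhc*, *Sdha*, *Atp5g3* and *Ndufaf1*, which is 7 members beside 9.84% of all genes. None was apart in the other direction, where 6.89% of all genes were. Within Oligo3, the cluster with the most cells in every library, the mitochondrial share in the *Fire*Δ/Δ library minus that in the *Fire*+/+ library of the same batch was 0.236 points in batch 3, 0.217 in batch 4, -0.0421 in batch 5 and 0.244 in batch 6. Over all cells of the same batches it was -0.210, -0.000217, -0.374 and 0.0347.

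In all clusters but Oligo3 the mitochondrial genes took a lower share of UMIs. As the clusters had been drawn from these very values, the differences are given without a test. In the libraries with at least 50 cells of a cluster, the mitochondrial share was 4.12% to 5.39% in Oligo1, 4.11% to 5.89% in Oligo2, 5.06% to 6.72% in Oligo3 and 4.33% to 5.86% in Oligo4. Compared with Oligo3 of the same library, it was lower by a median of -1.22 points in Oligo1 (4 libraries), -0.986 in Oligo2 (8 libraries) and -0.833 in Oligo4 (6 libraries), and in none of these libraries was it higher. The nuclear share stayed between 1.64% and 2.13% in all clusters, and its median difference from Oligo3 was 0.0815 points in Oligo1, 0.0537 in Oligo2 and -0.0609 in Oligo4. Median UMIs per cell were 8883 to 13178.5 in Oligo3, 9959 to 14205 in Oligo1, 10202.5 to 14282.5 in Oligo2 and 10956.5 to 15122.5 in Oligo4; their part in these shares was not tested.

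**Figure D3:**
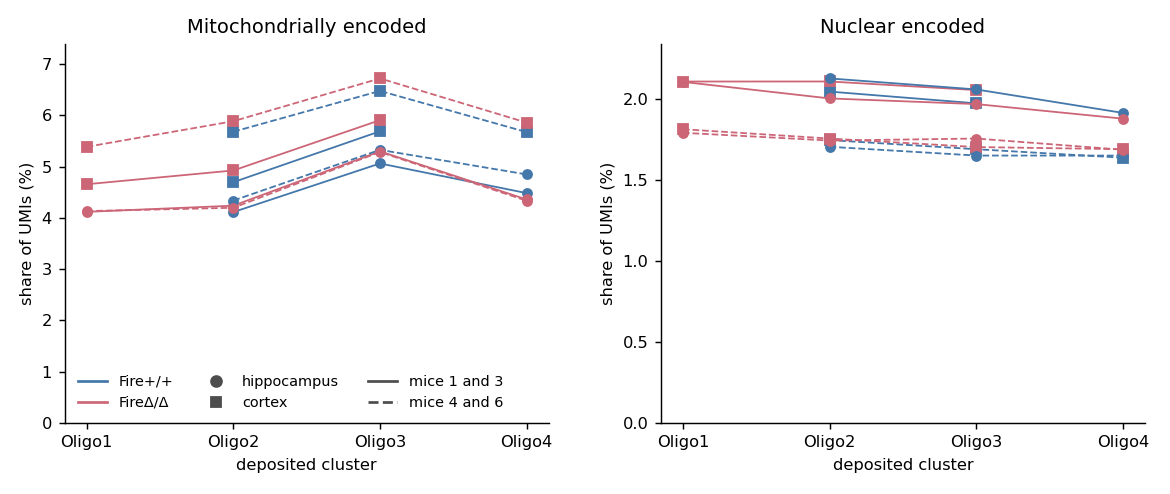
Share of UMIs (%) of the mitochondrial and of the nuclear genes by deposited cluster, 1 line per library (blue, *Fire*+/+; red, *Fire*Δ/Δ; circle, hippocampus; square, cortex; solid, mice 1 and 3; dashed, mice 4 and 6), for clusters with at least 50 cells. The mitochondrial share was highest in Oligo3 in all 8 libraries, whereas the nuclear share varied little by cluster and was lower in mice 4 and 6.

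The lower mitochondrial share of Oligo1, against all other cells of its library, involved every mitochondrial gene. The share in Oligo1 and in the other cells was 4.12% and 4.89% in the hippocampus and 4.66% and 5.54% in the cortex of mouse 3, and 4.13% and 4.84% in the hippocampus and 5.39% and 6.39% in the cortex of mouse 6. Most of these other cells were Oligo3, the cluster with the highest share. In Oligo2 of the same libraries, in the same order, the share was 4.24%, 4.93%, 4.20% and 5.89%, nearer to that of Oligo1. All 13 mitochondrial genes were lower in Oligo1 in all 4 *Fire*Δ/Δ libraries, beside 16.3% of all genes, with a median difference of -0.28 on the log2 scale. mt-Nd3 (-0.36 ± 0.05, SD of 4 libraries), mt-Co2 (-0.35 ± 0.04) and mt-Atp6 (-0.34 ± 0.02) differed most, and mt-Nd6 (-0.08 ± 0.05) and mt-Atp8 (-0.09 ± 0.07), both of low level, least. mt-Co3, for example, stood at 6.09, 6.32, 6.04 and 6.47 in Oligo1 cells and at 6.43, 6.61, 6.33 and 6.72 in the other cells of the hippocampus and cortex of mouse 3 and of mouse 6.

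The nuclear genes did not share this direction. In Oligo1 60 of 90 were higher, with a median of 0.01, beside 4928 of 9257 and a median of 0.00 over all genes. In all 4 libraries 21 were higher, beside 19.0% of all genes, and 4 were lower, beside 16.3%. The highest were *Uqcrb*, a complex III subunit (0.12 ± 0.07), *Ndufv3*, a small complex I subunit (0.11 ± 0.01), and *Ndufb9* (0.10 ± 0.02), each higher in all 4 libraries. The lowest were *Cox4i1* (-0.10 ± 0.08) and *Cox7a2l* (-0.09 ± 0.06), lower in all 4 libraries, and *Sdha*, the catalytic subunit of complex II (-0.06 ± 0.11), lower in 2 of 4. By complex, 9 of 37 nuclear genes of complex I and 6 of 17 of complex V were higher in all 4 libraries. Against Oligo3 of the same library, 12 of 13 mitochondrial genes were lower in Oligo2 in all 8 libraries, beside 9.96% of all genes, and 10 of 13 were lower in Oligo4, beside 8.42%. The Oligo4 counts include 2 cortical libraries with under 50 cells of that cluster. In Oligo2, 4 nuclear genes were lower and 12 were higher in all 8 libraries, the latter beside 15.8% of all genes. In Oligo4, 8 were lower and 5 were higher, the latter beside 9.36%.

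Between tissues, the mitochondrial genes were lower in the hippocampus of all 4 mice as a sum, and the nuclear genes were not. The hippocampus minus cortex difference of the mitochondrial share was -0.567 points in mouse 1, -1.19 in mouse 4, -0.776 in mouse 3 and -1.60 in mouse 6, a mean of -1.03 ± 0.460 (SD, n = 4 mice), whereas that of the nuclear share was between -0.0661 and 0.0705. By complex, the summed level of the mitochondrial genes in hippocampus and cortex was 98.0 and 116 UMIs per 10000 for complex I, 51.1 and 64.6 for complex III, 236 and 289 for complex IV and 95.6 and 115 for complex V. For the nuclear genes of complex IV it was 48.7 and 48.8. As each batch held a single tissue, tissue and batch cannot be told apart.

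In limma over the 8 libraries with genotype in the model, no member passed an adjusted p of 0.05 (lowest 0.899), and 0% of all genes did; edgeR called none either. At an unadjusted p under 0.05, 9 of 13 mitochondrial genes and no nuclear gene were lower in the hippocampus, beside 3.85% of all genes, and edgeR also gave 9 members at this level. Both libraries of a mouse come from 1 animal, a pairing that the fits above leave out. With the mouse as a replicate block 6 members passed, all mitochondrial and all lower in the hippocampus, beside 0.529% of all genes that were called lower. By limma they were mt-Cytb (-0.35, adjusted p = 0.00491), mt-Nd3 (-0.62, adjusted p = 0.00491), mt-Co3 (-0.30, adjusted p = 0.00994), mt-Nd1 (-0.32, adjusted p = 0.0233), mt-Co2 (-0.35, adjusted p = 0.0233) and mt-Nd2 (-0.30, adjusted p = 0.0341). mt-Atp6 (-0.27), mt-Nd6 (-0.06) and mt-Co1 (-0.29) had adjusted p-values of 0.0652, 0.0687 and 0.0833.

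In UMIs per 10000, mt-Co3 stood at 109, 106, 104 and 105 in the hippocampus of mice 1, 4, 3 and 6 and at 124, 133, 122 and 134 in their cortex. mt-Nd3 stood at 9.48, 12.6, 9.27 and 9.39 in the hippocampus and at 13.1, 20.4, 13.4 and 17.2 in the cortex. For both genes the tissues did not overlap. The tissues overlapped for mt-Nd4l, which stood at 3.69, 4.04, 3.49 and 2.71 in the hippocampus and at 2.32, 3.70, 2.19 and 2.92 in the cortex, with a mean difference of 0.22 on the log2 scale (standard error 0.11, limma adjusted p = 0.996 without the block and 0.167 with it). mt-Atp8 (0.05) and mt-Nd5 (0.05) also had mean differences above 0. Within the overlapping pairs shown above, mt-Atp6 (-0.27) lay below mt-Atp8 and mt-Nd4 (-0.11) lay below mt-Nd4l. For mt-Nd4l, mt-Atp8 and mt-Nd5 mouse 6 went against mouse 1.

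**Figure D4:**
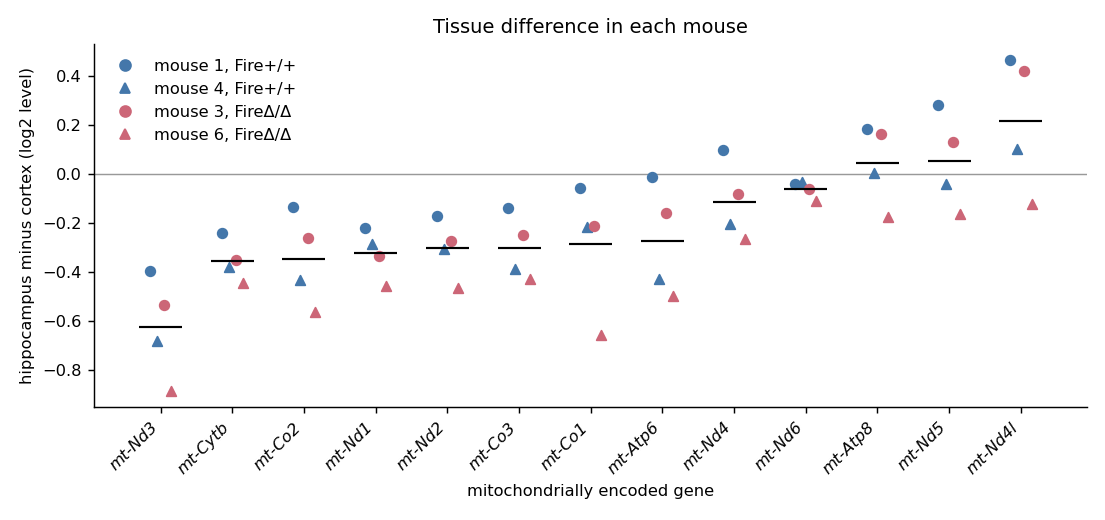
Hippocampus minus cortex difference in mean log2 level of the 13 mitochondrial genes in each mouse (blue, *Fire*+/+; red, *Fire*Δ/Δ; circles, mice 1 and 3; triangles, mice 4 and 6), with the mean as a black line. Genes from mt-Nd3 (-0.62) to mt-Atp6 (-0.27) were below 0 in all 4 mice, and mt-Atp8, mt-Nd5 and mt-Nd4l had means above 0 with mice on both sides.

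The nuclear genes differed little between tissues, with a median of -0.02. In every mouse 19 of 90 were lower in the hippocampus and 1, *Ndufb9*, was higher (0.03, 0.02, 0.02 and 0.03 in mice 1, 4, 3 and 6), beside 18.6% and 6.78% of all genes. Of the mitochondrial genes 9 of 13 were lower in every mouse. The lowest nuclear differences were those of *Atp5k* (-0.14, standard error 0.10) and *Atp5mpl* (-0.12, standard error 0.07), small subunits of complex V, and *Cox6c* (-0.10, standard error 0.13). The highest were *Sdhb*, the iron-sulfur subunit of complex II (0.06, standard error 0.05), *Cox4i1* (0.04, standard error 0.12) and *Ndufb6* (0.04, standard error 0.03). None of these 6 had an unadjusted p under 0.05.

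The size of the tissue difference depended on which cells and libraries entered. Among cells of at most 5% mitochondrial UMIs the mitochondrial share was lower in the hippocampus in 3 of 4 mice, by a mean of -0.156 points. Without batch 6 the difference of mice 1 and 3 was -0.672 points. The median difference of the mitochondrial genes was then -0.15 in place of -0.29, and that of the nuclear genes -0.09, in a fit where cortex was mice 1 and 3 alone.

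Of the 3 groupings of the mice and libraries, the nuclear genes differed most between the 2 pairs of mice 1 and 3 and mice 4 and 6. Mice 4 and 6 differ from mice 1 and 3 in animals, in age by label and in batches, which cannot be told apart, and each pair holds both genotypes; this grouping was chosen after seeing the data. The nuclear share was 2.03% on average in mice 1 and 3 and 1.71% in mice 4 and 6, a difference of -0.323 points, and the mitochondrial share was 5.09% and 5.56%. Of the nuclear genes tested, 83 of 90 were lower in both mice 4 and 6 than in both mice 1 and 3, beside 28.5% of all genes, and none was higher, beside 39.5%. Their median difference was -0.14, and that of all genes 0.00. In limma with genotype in the model, 56 of 90 passed an adjusted p of 0.05 as lower in mice 4 and 6, beside 9.85% of all genes, and none as higher. The fit held 4 mice. As the pairs were chosen after these values were seen, its adjusted p-values, here and below, describe the split and do not test it.

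*Cox7c* fell most, at 2.53 and 2.55 in mice 1 and 3 and 2.20 and 2.16 in mice 4 and 6 (difference -0.36, standard error 0.06, adjusted p = 0.0205 in limma). *Cox6c* stood at 2.79 and 2.71 against 2.46 and 2.41 (-0.32, standard error 0.06, limma adjusted p = 0.0254). *Cox6b1* (-0.27), *Ndufb7*, a complex I subunit (-0.27), and *Atp5k* (-0.26) came next. The smallest differences that passed were those of *Ndufs8* (-0.10), *Ndufaf8* (-0.10), *Ndufa10* (-0.10), *Uqcrc1* (-0.09) and *Sdhd* (-0.06). All 37 complex I genes, all 8 of complex III, 11 of 13 of complex IV and 16 of 17 of complex V were lower in both mice, as were 3 of 4 of complex II and 8 of 11 assembly factors. The 7 that were not were *Cox5b*, *Sdhc*, *Atp5g3*, *Cox7a2l*, *Ndufaf1*, *Ndufaf4* and *Sdhaf2*. Of the mitochondrial genes, 10 of 13 were higher in both mice 4 and 6 as means of both tissues, beside 39.5% of all genes. In limma mt-Atp8, mt-Atp6, mt-Co2 and mt-Nd5 passed as higher, beside 14.7% of all genes. mt-Cytb was among the 2 that were lower in both mice, at 5.41 and 5.35 against 5.52 and 5.56 (limma adjusted p = 0.119). The cortex of mice 4 and 6 is batch 6, and this grouping was not fitted without it.

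**Figure D5:**
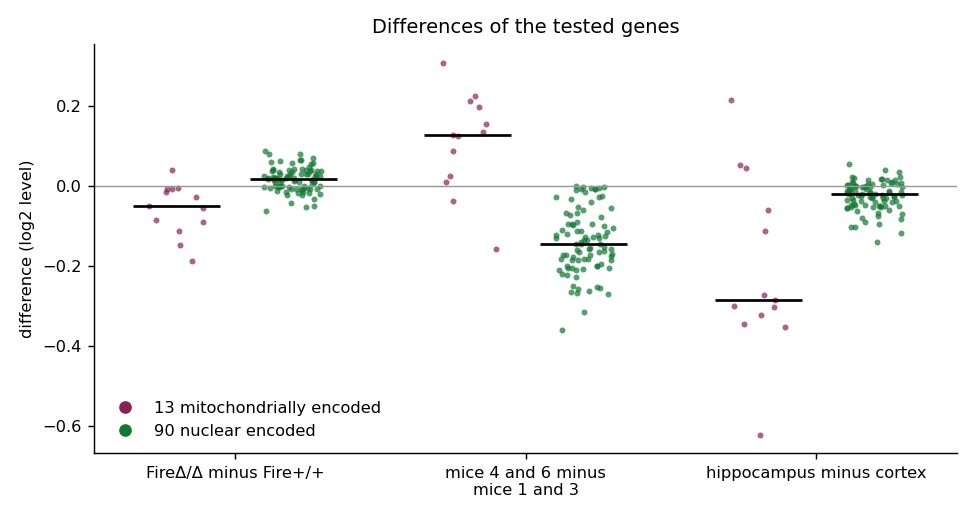
Differences in mean log2 level of the 13 mitochondrial and 90 nuclear genes tested, between genotypes, between mice 4 and 6 and mice 1 and 3, and between tissues; each point is 1 gene and black lines are medians. Nuclear genes have medians of 0.02, -0.14 and -0.02 and mitochondrial genes -0.05, 0.13 and -0.29.

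Within every tissue, genotype and cluster with at least 50 cells in both pairs, 12 in all, the nuclear share was lower in mice 4 or 6 than in mice 1 or 3, by 0.192 to 0.422 points. The mitochondrial share was higher in 9 of the 12. In the cortex, where mice 4 and 6 are batch 6, it was higher by 0.73 to 0.98 points. In the hippocampus the difference was 0.23 to 0.36 points in *Fire*+/+ and -0.04 to 0.02 in *Fire*Δ/Δ mice. Median UMIs per cell were higher in mice 4 or 6 in 7 of the 12; the part of depth in the lower nuclear share was not tested. UMIs of 4 haemoglobin genes, which mark erythrocyte RNA, were at 9.94 and 8.78 per 10000 in the hippocampus of mice 1 and 3 and between 0.316 and 2.33 in the other libraries. The astrocyte list of 6 genes ranged from 1.86 to 2.65 and the microglial list of 11 genes from 0.654 to 1.55 in *Fire*+/+ and 0.165 to 0.220 in *Fire*Δ/Δ libraries, with up to 6 of the 11 at 0 in the latter. Lists for neurons, endothelial cells, mural cells and oligodendrocyte progenitors were at most 0.280 in all libraries. The part of free or foreign RNA in the members' differences was not tested.

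In the comparison of the tissue difference between genotypes, no member passed an adjusted p of 0.05 (lowest 0.603 in limma) and 0.0216% of all genes did; edgeR called 0 members, with 3 at an unadjusted p under 0.05. In limma 5 members had an unadjusted p under 0.05, all with a lower hippocampus minus cortex difference in *Fire*Δ/Δ mice, beside 3.68% of all genes in this direction. *Ndufb1-ps*, annotated under the symbol of a complex I subunit, had differences of -0.01 and -0.00 in *Fire*+/+ mice and -0.17 and -0.18 in *Fire*Δ/Δ mice (-0.17, standard error 0.05). mt-Co1 had -0.06 and -0.22 against -0.21 and -0.66 (-0.30, standard error 0.11), a spread that mouse 6 widened. The other 3 at that level were *Atp5mpl* (-0.12, standard error 0.05), *Ndufa1* (-0.08) and *Sdhd* (-0.07). *Cox7c* had the second lowest nuclear difference (-0.15, standard error 0.08), with an unadjusted p above 0.05. The highest differences were those of *Uqcrc1* (0.02), *Ndufaf4* (0.02) and *Atp5g1* (0.01). Both *Fire*Δ/Δ mice were below both *Fire*+/+ mice for 42 of 90 nuclear and 2 of 13 mitochondrial genes, mt-Nd1 and mt-Nd6, beside 26.8% of all genes, and above both for 2 nuclear genes, *Uqcrc1* and *Ndufaf4*, beside 10.3%. All 13 mitochondrial and 85 of 90 nuclear genes had a lower mean difference in *Fire*Δ/Δ mice, with medians of -0.13 and -0.04. Most genes went this way: over all genes only 3123 of 9257 had a higher mean difference, with a median of -0.01. The mitochondrial median was -0.27 without mouse 3 or mouse 4, -0.01 without mouse 1 and 0.01 without mouse 6.

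Genes that act on the chain from outside the list differed little. Of 16 tested genes for the expression of mitochondrial DNA, none passed in limma for genotype, tissue or both, and 2 had an unadjusted p under 0.05 between tissues: *Polrmt*, the mitochondrial RNA polymerase (-0.02, standard error 0.01), and *Tufm*, a mitochondrial elongation factor (-0.03, standard error 0.01), each lower in the hippocampus in 4 of 4 mice. *Slirp*, which binds mitochondrial RNA, had the lowest difference of this list (-0.05, standard error 0.05). The median tissue difference of the list was -0.01. None of 6 tested regulators of mitochondrial biogenesis passed, nor had any an unadjusted p under 0.05; *Yy1* had the highest tissue difference (0.05) and *Nrf1* the lowest (-0.01). Of 32 further assembly factors and chain genes, 12 genes of the citric acid cycle and 12 genes of mitochondrial membranes and chaperones, none passed in any of the 4 comparisons, with medians between -0.05 and 0.03. By limma at most 2 genes of any of these lists had an unadjusted p under 0.05 in a comparison, and edgeR called none of their genes, likewise with at most 2 at that level. Between tissues *Hccs*, which attaches haem to cytochrome c, had -0.08 (standard error 0.03) and *Cox17*, a copper carrier for complex IV, had -0.11 (standard error 0.10).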

How the data were processed

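Single oligodendrocytes of 8 libraries (4 mice, 2 tissues each) were analysed. Per the submitters' processing notes, reads were processed with Cell Ranger 5.0.0 against mm10. The deposited log2 values are log2 of UMIs divided by a cell's size factor, plus 1, and the authors had removed cells above 10% mitochondrial UMIs. The deposited counts give UMIs, mitochondrial UMIs and detected genes per cell, the deposited percent is the mitochondrial share of a cell, and the deposited size factors are a ratio that the authors computed with scran. UMIs per gene were recovered from the log2 values and size factors, all whole within 0.001, and their mitochondrial sums equalled the deposited ones in 12581 of 12581 cells.

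Mean log2 levels per library, or per mouse for genotype, entered limma 3.58.1 (R 4.3.3) for all genes detected in 5% of cells or more, with Benjamini-Hochberg adjustment at 0.05. Genotype was compared between mice, tissue between libraries with genotype in the model, and the tissue difference between genotypes. In this last fit the prior spread followed the mean level of a gene, a choice made after seeing the data, as was the grouping of mice 4 and 6 against mice 1 and 3. Same-numbered libraries came from 1 mouse, and their deviations from the group means correlated at 0.843 (WT) and 0.853 (KO) over 9257 genes. The mice of a genotype also differ in age by label and in batches, so the correlation cannot be credited to the animal alone. edgeR 4.0.16 on UMI sums, other pseudocounts (0.1 and 1), filters (10% or none), centring, left-out mice and batch 6, cells of at most 5% mitochondrial UMIs and blocks were tried. Scripts were tested on simulated data. Positions came from GENCODE vM21 (GRCm38) and promoters from RefSeq. Named were the mitochondrial genes, isoform families, genes past the threshold (5 highest and 5 lowest where more than 10), the 3 highest and 3 lowest nuclear differences of each comparison and of Oligo1, genes under the filter, and up to 2 at each end of the other lists; genes named for an unadjusted p or for mice that did not overlap were chosen after their values were seen. The members and lists were chosen with earlier results of these data known.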

Additional observations from a re-analysis of the deposited data

Results flagged for a closer look

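In 2 of 212 sets of 4 libraries of a tissue (the tested members and the shares in each tissue), 1 library stood apart from the other 3, by a gap to its nearest neighbour that was large for the range of the set. Chance gives such a gap in about 1 in 20 groups drawn from 1 normal population. Each set here mixes genotypes, age labels and batches, so that rate need not hold. *Cox5b* in the cortex had mean log2 levels of 1.64 in mice 1 and 4, 1.66 in mouse 6 and 1.82 in mouse 3, a gap of 0.857 of the range. mt-Nd6 in the cortex stood at 0.29 in mice 1, 3 and 4 and at 0.33 in mouse 6, a gap of 0.890 of the range.

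For 3 nuclear members the hippocampus minus cortex difference was above 0 in both *Fire*+/+ mice and below 0 in both *Fire*Δ/Δ mice, and for none of them did the difference between genotypes pass in limma. *Ndufb4*, a complex I subunit, had 0.04 and 0.02 in mice 1 and 4 and -0.10 and -0.04 in mice 3 and 6 (difference between genotypes -0.10, limma adjusted p = 0.806). *Atp5j*, a complex V subunit, had 0.05 and 0.02 against -0.04 and -0.03 (-0.0681, limma adjusted p = 0.888). The assembly factor *Ndufaf5* had differences of at most 0.01 in size, with a difference between genotypes of -0.0188 (limma adjusted p = 0.806).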

How the results depend on the processing

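With the mouse as a replicate block, the paired fit called 6 members between tissues, all mitochondrial and lower in the hippocampus. The fit without the block called 0. It leaves out the pairing of the tissues of a mouse and keeps differences between mice in its spread. Among cells of at most 5% mitochondrial UMIs the tissue difference of the mitochondrial share was -0.156 points in place of -1.03, and that of the log2 ratio -0.0702 in place of -0.28; this limit removes the cells with the highest shares by construction. Under every other alternative run, the number of members called stayed at 0 in all 4 comparisons, and the shares moved by less than the spread between mice. Leaving out each mouse in turn gave tissue differences of -1.19 to -0.846 points for the mitochondrial share, -0.0246 to 0.0209 for the nuclear share and -0.31 to -0.22 for the log2 ratio. The genotype differences were then -0.391 to 0.116, -0.134 to 0.211 and -0.27 to 0.13, so their sign changed with the mouse left out. Each omission leaves a pair of mice of the same age label and batches incomplete. Within both pairs the *Fire*Δ/Δ mouse had the lower mitochondrial share, the higher nuclear share and the lower log2 ratio. The ratio was 1.30 in mouse 3 against 1.34 in mouse 1, and 1.64 in mouse 6 against 1.74 in mouse 4. With 2 mice per genotype, small differences of single genes could not be told from the spread between mice. Tissue cannot be told apart from batch, nor age from animal and batch.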
